A study of Mus musculus with 24 samples.

Results

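Solute carriers are membrane proteins that move amino acids, sugars, metals, vitamins, nucleotides and inorganic ions across the plasma membrane, the lysosome, the Golgi or the inner mitochondrial membrane, and their gene symbols start with Slc and a family number. All gene names of that form on the array were taken, except Slc2a1, Slc16a3 and Slc7a11, which gave 335 names on 547 probes. A name was tested if some probe of it gave a signal well above background on every one of the 3 arrays in 1 or more of the 8 groups, and the brightest such probe stood for the gene. This left 218 carriers among the 15099 gene names tested on the array. Of the 117 names not tested, 33 were well above background on no array, 69 on 1 to 5 arrays and 15 on more, with at most 15 of the 24 arrays.

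The arrays measured RNA of RAW264.7, a mouse macrophage-like cell line, in a line labelled as overexpressing Tbc1d23 (the Tbc1d23 line) and in a control line carrying chloramphenicol acetyltransferase (the CAT line). Each line was left unexposed (0 h) or exposed to 20 ng/ml lipopolysaccharide (LPS), the bacterial ligand of TLR4, for 1, 3 or 5 h, with 3 arrays per group, and 400 µg/ml G418 was in the medium of every group. There was 1 line per construct, whether a line is a clone is not stated, and the design text calls the replicates biological without saying that they were separate cultures. If they were not, p-values measure only the spread between these samples, which may be technical. The comparison asks whether Tbc1d23, of a family of regulators of Rab GTPases in membrane traffic, alters the macrophage response to LPS.

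Values are log2 relative signals, on which 0 is the 75th percentile of the array's probes, and a difference of 1 is 2-fold. A gene was called at a limma adjusted p under 0.05 over all 15099 names, errors after ± are limma standard errors with 3 arrays per group, and replicates are listed in their order, 1 to 3. Levels of different probes cannot be set against each other. The share of probes well above background was 42.1 to 69.6% per array. Both extremes were unexposed Tbc1d23 arrays (69.6, 42.1 and 57.5% for replicates 1 to 3 at 0 h), and CAT arrays gave 48.4 to 54%. This uneven group is the baseline of every LPS response of the Tbc1d23 line and of the line difference at 0 h. In the main fit the Tbc1d23 transcript was not called between the lines at any time. Its differences (Tbc1d23 minus CAT) were 0.03, -0.18, 0.47 and -0.20 at 0, 1, 3 and 5 h. This is no check of the labels. Which stretch of the transcript the construct carries is not stated, and the probe may lie beyond it. Of 9 macrophage markers on the array, 8 were well above background on all 3 arrays of every group at 0 and 5 h (Mrc1 was not), and their summed relative signal on the linear scale was 1010 to 1460 in Tbc1d23 arrays and 1340 to 1420 in CAT arrays at 0 h, and 1160 to 1760 in Tbc1d23 arrays and 1980 to 2150 in CAT arrays at 5 h. Between the lines 2 of these markers were higher and 4 lower in Tbc1d23 cells at 0 h (66.7% called, against 45% of all genes), and at 5 h none was higher and 5 were lower (55.6% against 53.1%). Emr1, which encodes the macrophage antigen F4/80, was lower at 0 h (-2.66) and 5 h (-1.67). These markers moved with the line, and their part in the line differences given here was not tested. The summed markers of T cells, B cells, granulocytes, erythroid cells and fibroblasts were at most 0.717 on any array, and no epithelial marker was tested. In bulk RNA a smaller share of cells with a transcript and less transcript per cell cannot be told apart.

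The 4 times of a replicate lay on 1 slide. No slide held both lines, and the errors given for line differences do not allow for a slide effect (within-slide correlation 0.567). Of the line differences given for single genes, those of Slc13a1 and Slc15a2 at 0 h and Slc4a7 at 3 h were not called with a random slide effect. The slides of Tbc1d23 replicates 1 and 2 came from another serial run than those of Tbc1d23 replicate 3 and all CAT replicates, so within the run that holds both lines a line difference rests on Tbc1d23 replicate 3. Of the 113 carriers called between the lines at 0 h, 112 kept their direction within that run and 77 were called there, and at 5 h all 129 kept their direction and 101 were called. With the slide run as a fixed term, the Tbc1d23 transcript was 0.4, 0.19, 0.83 and 0.16 higher in Tbc1d23 cells at 0, 1, 3 and 5 h. Limma called it there at 0 h (adjusted p = 0.0239) and 3 h (adjusted p = 6.17e-05). Tbc1d23 replicate 3 against the CAT arrays gave 0.33, 0.17, 0.88 and 0.21. These values do not check the labels either, as the probe may lie beyond the construct. Same-numbered arrays of a line deviated together (correlations of 0.174 to 0.778 over genes), so counts of LPS responses are also given with the replicate number as a block within each line.

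In macrophages carriers set how much iron, zinc and copper a microbe in the phagosome can reach, they bring in the arginine from which nitric oxide is made, and they feed glycolysis, haem and nucleotide synthesis. Iron leaves the cell through ferroportin and the phagosome through NRAMP1, and zinc enters the cytosol through ZIP proteins and leaves it through ZnT proteins. Lysosomal carriers return amino acids, sugars and vitamins from digested material to the cytosol.

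In the Tbc1d23 line few carriers were called after LPS. They were 2 at 1 h (Slc20a1 higher and Slc7a2 lower, 0.66 and -2.41; 0.917% of the 218 carriers against 1.64% of all genes tested, of which 0.834% higher and 0.808% lower), 17 at 3 h (11 higher, 6 lower; 7.8% against 6.59%, of which 3.64% higher and 2.95% lower) and 15 at 5 h (8 higher, 7 lower; 6.88% against 6.06%, of which 3.14% higher and 2.92% lower). With the replicate block within line these counts were 7, 42 and 42. With quantile normalization the split at 3 h was 10 higher and 11 lower, and at 1 h 2 were called, both higher. The call of Slc7a2 at 1 h was lost without any of 4 arrays (adjusted p up to 0.189) and with the normexp correction (-0.42), and the gene was not well above background on any Tbc1d23 array at 1 h.

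In the CAT line LPS changed the carriers mostly after 1 h. At 1 h 12 of 218 were called (5 higher, 7 lower; 5.5% of the carriers against 7.25% of all genes tested, of which 3.83% were higher and 3.41% lower), at 3 h 96 (48 higher, 48 lower; 44% against 34.6%, of which 17.2% higher and 17.5% lower) and at 5 h 115 (61 higher, 54 lower; 52.8% against 41.3%). Of those at 5 h, 54 differed at least 2-fold (24.8% of the carriers, against 19.2% of all genes). Carriers called higher at 5 h were 28% of the members against 19.6% of all genes, and those called lower were 24.8% against 21.7%. With the replicate block the counts were 30 at 1 h, 122 at 3 h and 143 at 5 h.

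The difference of the LPS responses (Tbc1d23 minus CAT) was called for 4 carriers at 1 h (1 higher, 3 lower; 1.83% against 2.4%), 46 at 3 h (21.1% against 16.5%) and 71 at 5 h (38 higher, 33 lower; 32.6% against 22.9%), and for 11, 86 and 108 with the replicate block. Over all genes the shares called higher at 1, 3 and 5 h were 0.563%, 8.09% and 12%, and those called lower 1.83%, 8.42% and 10.9%. At 3 h 19 of the 46 were higher and 27 lower, which turned to 26 and 23 with quantile normalization. Of the 61 carriers called higher in CAT cells at 5 h, 43 also had a positive difference in Tbc1d23 cells, with a median of 0.18 in the Tbc1d23 line and 0.96 in the CAT line, and for 33 the response of the Tbc1d23 line was called smaller or opposite. Of the 54 called lower in CAT cells, 45 had a negative difference in Tbc1d23 cells (medians -0.19 and -0.98), and for 36 the difference of responses was called in the other direction. Both sets were chosen by their calls in CAT cells, which by itself favours a larger median there. For all 71 carriers with a called difference at 5 h, the response of the Tbc1d23 line was smaller in size than that of the CAT line.

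**Figure D1:**
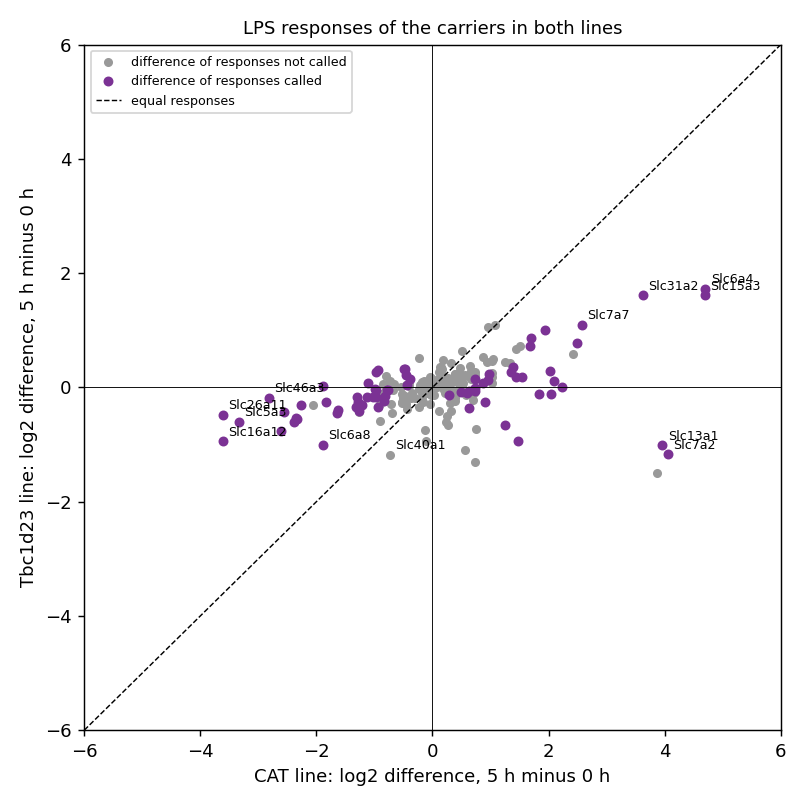
Each point is 1 of the 218 carriers; the y axis is its log2 difference between 5 and 0 h of LPS in the Tbc1d23 line and the x axis the same in the CAT line, with purple points where the difference of responses was called (71) and a dashed line of equal responses. For 68 of the 71 purple points the Tbc1d23 value lies nearer to 0 than to the CAT value, and Slc7a2 and Slc13a1 lie below the horizontal axis on the right.

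Between the lines, 113 carriers were called at 0 h (72 higher and 41 lower in the Tbc1d23 line; 51.8% against 45% of all genes), 112 at 1 h (70 higher, 42 lower; 51.4% against 45.3%), 114 at 3 h (74 higher, 40 lower; 52.3% against 50.7%) and 129 at 5 h (83 higher, 46 lower; 59.2% against 53.1%). Over all genes the shares called higher at 1 and 3 h were 23.4% and 27.1%, and those called lower 21.8% and 23.6%. At 0 h 33% of the members were called higher against 25.1% of all genes, and 18.8% lower against 19.9%; at 5 h these shares were 38.1% against 29.2% and 21.1% against 23.9%. Quantile normalization shifted the median of all genes by -0.17 at 0 h, by -0.11 for the CAT response at 5 h and by 0.14 for the difference of responses at 5 h, and gave 65 carriers higher and 51 lower at 0 h. The filter kept 10 carriers only through groups of the Tbc1d23 line and 20 only through groups of the CAT line, so for these the choice of genes itself favoured a line difference, and 163 carriers were well above background on all 24 arrays. Of the carriers described, Slc2a4, Slc7a3, Slc9a2, Slc22a23, Slc24a3 and Slc39a8 were kept only through Tbc1d23 groups and Slc1a2, Slc7a2, Slc12a3, Slc13a1 and Slc15a2 only through CAT groups, and their line differences are given as values with no p. A fold written as "at least" sets a group with the probe well above background on 1 or more arrays against a group where it was so on no array. The brighter group was not well above background on all 3 arrays for Slc7a2, Slc15a2 and Slc22a23 between the lines at 0 h. The same holds for Slc39a8 in the CAT response. Those 4 folds rest partly on signals below that limit and are no firm lower bounds. All these folds apply to the scaled signals used here. With the normexp background correction, which adds an offset of 50 units to every signal, the difference was smaller than the stated bound for 28 of 29 such folds. Of the 29, 11 were not called with it. Of 220 values for single genes, that correction made 74 more than 1.5 times smaller. At 1 h the highest differences measured on every array, apart from the erratic Slc4a7 (4.61; 3.69 at 3 h; lost without 1 array at 1 h and any of 3 at 3 h, adjusted p up to 0.0616 and 0.161), were those of Slc40a1 (4.48) and Slc39a14 (2.18), and the lowest those of Slc7a8 (-4.01), Slc7a7 (-1.57) and Slc46a3 (-1.56). At 3 h they were Slc26a11 (3.58) and Slc19a2 (2.81) on the high side, and Slc7a8 (-3.47), Slc11a1 (-2.61) and Slc7a7 (-2.31) on the low side.

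**Figure D2:**
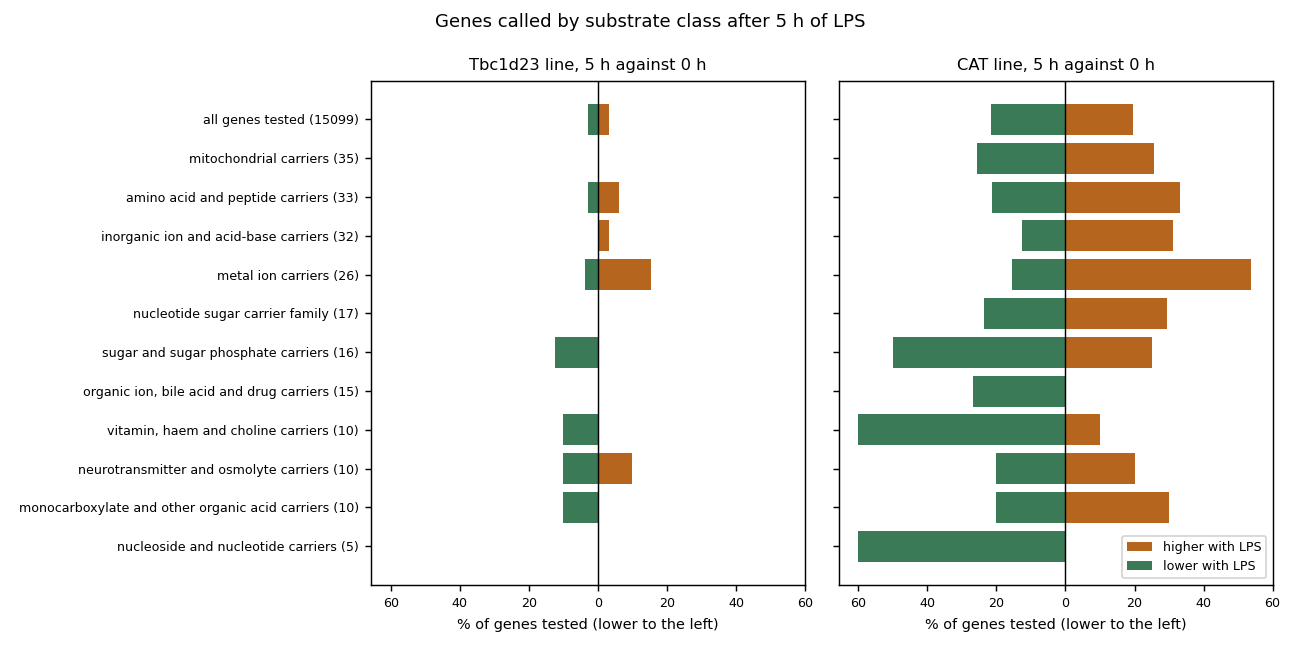
Bars give the percentage of each substrate class called higher (right, brown) or lower (left, green) after 5 h of LPS against 0 h, in the Tbc1d23 line (left panel) and the CAT line (right panel), with the number of genes tested in parentheses. In the CAT line metal ion carriers reach furthest to the right, while vitamin, haem and choline carriers and nucleoside carriers reach furthest to the left.

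Metal carriers had the highest share of LPS-raised members among the classes of 5 or more genes in CAT cells. At 5 h 4 of 26 were higher and 1 lower in Tbc1d23 cells (median log2 difference 0.13, against -0.01 over all genes). In CAT cells 14 were higher and 4 lower (median 0.45 against 0.06, and 13 and 5 with quantile normalization). The shares over all genes were 3.14% higher and 2.92% lower in Tbc1d23 cells, and 19.6% and 21.7% in CAT cells. The difference of responses was called for 11, 2 higher and 9 lower in the Tbc1d23 line (median -0.36 against -0.03). It was called for 22.9% of all genes, 12% higher and 10.9% lower.

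Slc31a2, which encodes the copper carrier CTR2 of late endosomes and lysosomes, (probe at chromosome 4, 61959089 to 61959148, mm9) stood at 0.93, 0.86 and 0.98 in Tbc1d23 cells at 5 h, against -0.64, -0.72 and -0.71 at 0 h. The CAT arrays gave 2.85, 2.90 and 2.88 at 5 h, against -0.79, -0.69 and -0.77 at 0 h. All 5 h arrays lay above all 0 h arrays in both lines, and the rise was 1.61 ± 0.09 in the Tbc1d23 line (adjusted p = 1.34e-09) and 3.63 ± 0.09 in the CAT line (adjusted p = 5.72e-16). It was already 1.59 higher at 3 h in Tbc1d23 cells and 3.45 higher in CAT cells. At 5 h the transcript was 3.87-fold lower in the Tbc1d23 line (-1.95 ± 0.09; -1.90 within the shared run).

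Slc39a14, the zinc importer ZIP14, which also takes up iron not bound to transferrin, stood at 1.26, 1.54 and 0.60 in Tbc1d23 cells at 5 h and 1.13, 1.29 and 0.62 at 0 h, which overlap. Its values in CAT cells were 0.63, 1.03 and 0.79 at 5 h and -1.33, -1.19 and -1.33 at 0 h, a rise of 2.10 ± 0.23 (adjusted p = 3.51e-07). The unexposed Tbc1d23 arrays overlapped the LPS-exposed CAT arrays, and all 3 lay above the CAT arrays at 0 h, with a difference of 2.30 ± 0.23 (1.91 within the shared run). Slc39a8, the zinc and manganese carrier ZIP8, was not well above background on any CAT array at 0 h, was at least 2.65-fold higher in CAT cells at 5 h (adjusted p = 2.03e-05) and at least 4.19-fold higher in Tbc1d23 cells at 0 h. Only 2 of 3 CAT arrays measured it at 5 h. With the normexp correction these differences were 0.46, still called, and 0.32, not called. A further zinc importer, Slc39a4 (ZIP4), was 1.99 ± 0.25 higher in Tbc1d23 cells at 0 h.

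The phagosomal metal carrier Slc11a1 (NRAMP1) stood at 1.10, 1.10 and 1.18 in Tbc1d23 cells and 2.92, 2.77 and 2.69 in CAT cells at 0 h. At 5 h its values were 1.97, 2.16 and 2.28 in Tbc1d23 cells and 4.88, 4.68 and 4.64 in CAT cells. The lines did not overlap at either time, and even the exposed Tbc1d23 arrays lay below the unexposed CAT arrays. The line difference was -1.67 ± 0.11 at 0 h and -2.60 ± 0.11 at 5 h (-1.62 and -2.46 within the shared run), and the LPS response was 1.01 ± 0.11 in Tbc1d23 cells and 1.94 ± 0.11 in CAT cells. Its relative Slc11a2 (DMT1), the carrier of ferrous iron out of endosomes, rose by 1.68 with LPS in CAT cells and was lower in Tbc1d23 cells at 5 h (-1.23).

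Slc40a1, which encodes the iron exporter ferroportin, (probe at chromosome 1, 45965255 to 45965314, mm9) had the highest line difference at 0 h among carriers well above background on all arrays compared, after Slc4a7, whose probes disagree. It stood at 1.06, 1.39 and 1.95 in Tbc1d23 cells and -4.20, -2.87 and -2.79 in CAT cells at 0 h, a 27-fold difference (4.75 ± 0.35, adjusted p = 2.83e-09; 5.24 within the shared run, 2.88 with the normexp correction). At 5 h the values were 0.11, -0.08 and 0.82 in Tbc1d23 cells and -3.68, -4.36 and -4.01 in CAT cells (4.30 ± 0.35; 1.87 with the normexp correction). The probe was not well above background on every CAT array at 5 h, so differences against that group compare partly with a signal below that limit. Every Tbc1d23 array lay above every CAT array at both times. With LPS the transcript was lower in Tbc1d23 cells (-1.18 ± 0.35, adjusted p = 0.0496), a call lost when any of 18 of the 24 arrays was left out (adjusted p up to 0.216). In CAT cells the difference of -0.73 ± 0.35 was not called (adjusted p = 0.104), but it was called with the replicate block within line (adjusted p = 0.0269).

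Among zinc exporters, Slc30a1 (ZnT1, of the plasma membrane) was 1.44 higher in CAT cells after 5 h, and the difference of responses was -1.25. Slc41a3, of a magnesium carrier family, was lower in CAT cells at 5 h (-1.84; difference of responses 1.59). For 2 metal carriers the probes disagreed between the lines at 0 h. The brighter probe of Slc31a1, the copper importer CTR1, gave 0.60 ± 0.15 (Tbc1d23 minus CAT) and its dimmer probe -1.80 ± 0.15, so no direction is given for that gene. Slc41a1 likewise gave 0.64 ± 0.17 with the brighter and -1.0 ± 0.31 with the dimmer probe.

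**Figure D3:**
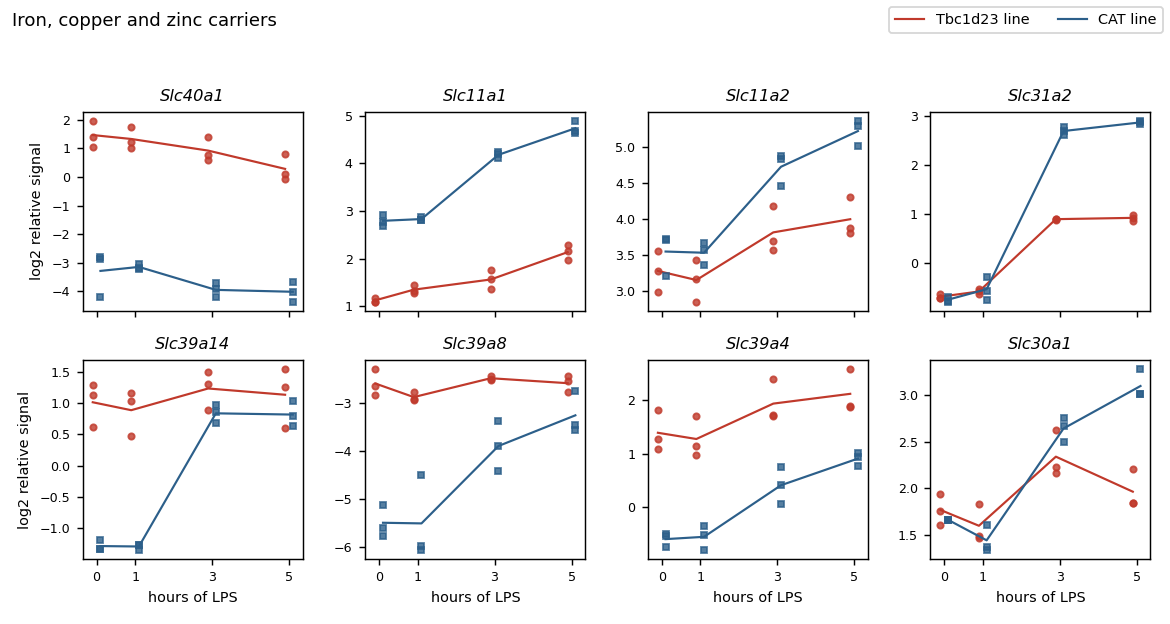
Points are single arrays and lines join group means, as log2 relative signal (y axis) against hours of LPS (x axis), for 8 metal carriers in the Tbc1d23 line (red circles) and the CAT line (blue squares). Slc40a1 is high and Slc11a1 low in Tbc1d23 cells at every time, and Slc31a2 rises in both lines but less in Tbc1d23 cells. Slc39a8 was not well above background in CAT cells at 0 and 1 h, and Slc40a1 not on every CAT array at 5 h.

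Of the genes that handle the same metals, 12 for iron and 8 for zinc and copper were tested. In Tbc1d23 cells at 5 h limma called 0 of these genes, while 1 iron gene and 1 zinc and copper gene had an unadjusted p under 0.05. At 5 h in CAT cells 4 iron genes were higher and 2 lower (50% called, against 41.3% of all genes), among them the siderophore-binding lipocalin Lcn2, which was not well above background at 0 h and at least 13.2-fold higher (1.38 on the log2 scale with the normexp correction), and the transferrin receptor Tfrc (0.95). Lcn2 was kept only through the CAT arrays at 3 and 5 h, so the choice of genes itself favoured its rise. For zinc and copper 2 genes were higher and 1 lower (37.5%), with the metallothionein Mt2 at 2.85. At 0 h 2 iron genes were higher in Tbc1d23 cells, haem oxygenase Hmox1 (3.26) and ferritin light chain Ftl1 (0.66; lost without either of 2 arrays, adjusted p up to 0.133), and 4 were lower (50% called, against 45% of all genes).

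Among the 33 amino acid and peptide carriers, 2 were higher and 1 lower in Tbc1d23 cells at 5 h (median -0.07). In CAT cells 11 were higher and 7 lower (median 0.35). The shares over all genes were 3.14% higher and 2.92% lower in Tbc1d23 cells, and 19.6% and 21.7% in CAT cells. Slc15a3, a lysosomal carrier of histidine and small peptides (probe at chromosome 19, 10931798 to 10932148, mm9), had the largest rise among carriers well above background on all arrays compared. It stood at 1.99, 2.09 and 1.59 in Tbc1d23 cells at 5 h against 0.29, 0.39 and 0.17 at 0 h, and at 3.37, 3.24 and 3.39 in CAT cells at 5 h against -1.38, -1.47 and -1.20 at 0 h. No exposed array overlapped the unexposed arrays of its line. The rise was 3.05-fold in Tbc1d23 cells (1.61 ± 0.14) and 25.7-fold in CAT cells (4.69 ± 0.14, adjusted p = 4.93e-15). It was 1 of the 5 carriers already called higher in CAT cells at 1 h (1.79), and at 3 h the response was 1.34 in Tbc1d23 cells and 3.58 in CAT cells. Before LPS Tbc1d23 cells held more of it (1.63) and at 5 h less (-1.45). Its relative Slc15a4, which works in the same compartment and is required for endosomal TLR signalling, had a difference of -0.03 in Tbc1d23 cells at 5 h, not called, and was lower in CAT cells (-0.99).

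The cationic amino acid carriers bring in arginine, lysine and ornithine. Slc7a2, the inducible arginine importer of activated macrophages, stood at -3.82, -5.15 and -6.53 in Tbc1d23 cells at 5 h and -3.15, -4.28 and -4.57 at 0 h, with 1 of 3 arrays well above background at each time. In CAT cells it stood at -2.49, -2.21 and -2.46 at 5 h and was not well above background on any array at 0 h, so it was at least 4.85-fold higher with LPS. It was kept through the CAT arrays at 5 h alone, so no p is given. The CAT arrays at 5 h lay above the other arrays given here. At 0 h it was at least 1.59-fold higher in Tbc1d23 cells (0.19 on the log2 scale with the normexp correction, not called) and at 5 h lower (-2.78 ± 0.55). The constitutive importer Slc7a1 was 0.96 ± 0.11 higher in CAT cells at 5 h than at 0 h, and at 5 h it was lower in Tbc1d23 cells than in CAT cells (-0.86).

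Slc7a7, a light chain that exchanges cationic for neutral amino acids and is known for its role in macrophages, stood at 2.34, 2.64 and 3.12 in Tbc1d23 cells at 5 h and 1.42, 1.54 and 1.86 at 0 h (1.10 ± 0.22). In CAT cells the values were 5.29, 5.40 and 5.29 at 5 h and 2.35, 2.97 and 2.94 at 0 h (2.57 ± 0.22). It rose in both lines, as at 3 h (1.13 in Tbc1d23 and 2.29 in CAT cells), and at 5 h every Tbc1d23 array lay below every CAT array (-2.62 ± 0.22). The heavy chain Slc3a2 (CD98), its partner and that of other light chains, was 1.36 higher in CAT cells at 5 h than at 0 h, and at 5 h it was lower in Tbc1d23 cells (-1.28). Of the other light chains, Slc7a5 (LAT1, large neutral amino acids) was 0.73 higher in CAT cells at 5 h, and Slc7a6, named after its values were seen, was lower (-0.76; not called with the normexp correction, -0.58).

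Slc7a8 (LAT2), another light chain for neutral amino acids, had the lowest line difference at 0 and at 5 h among carriers well above background on all arrays compared. It stood at -1.47, -0.94 and -2.73 in Tbc1d23 cells and 0.39, 2.08 and 2.15 in CAT cells at 0 h, and at -1.12, -0.24 and -2.19 in Tbc1d23 cells and 2.22, 2.60 and 2.41 in CAT cells at 5 h. The lines did not overlap at either time, with differences of -3.25 ± 0.62 at 0 h and -3.59 ± 0.62 at 5 h (-4.27 and -4.60 within the shared run). Replicate 1 of the CAT cells at 0 h lay below the other two. Slc43a2 (LAT4, branched-chain amino acids and phenylalanine) was lower in Tbc1d23 cells at 0 h (-1.64 ± 0.37; not called within the shared run, -1.25) and fell with LPS in CAT cells (-2.61 ± 0.37). Slc7a4, a relative of the cationic carriers, was 1.86 higher in Tbc1d23 cells at 0 h and, as it was not well above background in CAT cells at 5 h, at least 7.75-fold higher there. In CAT cells it fell at least 2.87-fold with LPS, and its difference of responses, fitted against that dim group, was 2.13 and was not called with the normexp correction (0.06).

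Dim members of the class differed between the lines as well. The cationic carrier Slc7a3 was at least 3.54-fold higher in Tbc1d23 cells at 0 h and 2.74-fold at 5 h, where it was not called with the normexp correction (0.30) or within the shared run (2.30). The peptide carrier Slc15a2 (PEPT2) was at least 2.49-fold lower in Tbc1d23 cells at 5 h and 1.03-fold at 0 h, where the call was lost without any of 3 arrays and with the normexp correction (-0.32), and the glutamate carrier Slc1a2 at least 2.81-fold lower at 5 h. Of the glutamine carriers, Slc1a5 (ASCT2) was 0.44 higher in CAT cells at 5 h (not called with quantile normalization, 0.19, nor without any of 3 arrays, adjusted p up to 0.104) and Slc38a2 (SNAT2) had a difference of -0.12 ± 0.15, not called. Slc16a10, of aromatic amino acids, was 0.87 higher with its brightest probe in CAT cells at 5 h, while a dimmer probe was lower (-0.67 ± 0.24).

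A list of 13 amino acid deprivation genes held Atf4 and targets of the transcription factor it encodes. Of these 13 limma called 0 in Tbc1d23 cells at 5 h (4 at an unadjusted p under 0.05). In CAT cells at 5 h 10 were higher and none lower (76.9% called, against 41.3% of all genes, median 1.54). Between the lines 11 were higher and 1 lower in Tbc1d23 cells at 0 h (92.3% against 45%, median 0.83 against 0.09 over all genes). At 5 h 2 were higher and 6 lower in Tbc1d23 cells (61.5% against 53.1%, median -0.26 against 0.08). Of 6 genes of arginine use, 1 was called in Tbc1d23 cells at 5 h, arginase Arg2 (1.51), a call lost without 1 array (adjusted p up to 0.0543). In CAT cells 5 of the 6 were higher at 5 h (83.3%), among them argininosuccinate synthase Ass1 (4.94). Inducible nitric oxide synthase Nos2 and Arg2 were not well above background on any CAT array at 0 h and were at least 4.88-fold and 16.3-fold higher at 5 h (0.81 and 1.65 on the log2 scale with the normexp correction). At 5 h Nos2 and Ass1 were not well above background on any Tbc1d23 array and were at least 4.85-fold and 67.3-fold lower in Tbc1d23 cells (-0.79 and -3.18 with the same correction). Both were kept only through CAT groups, Nos2 through the CAT arrays at 5 h alone.

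**Figure D4:**
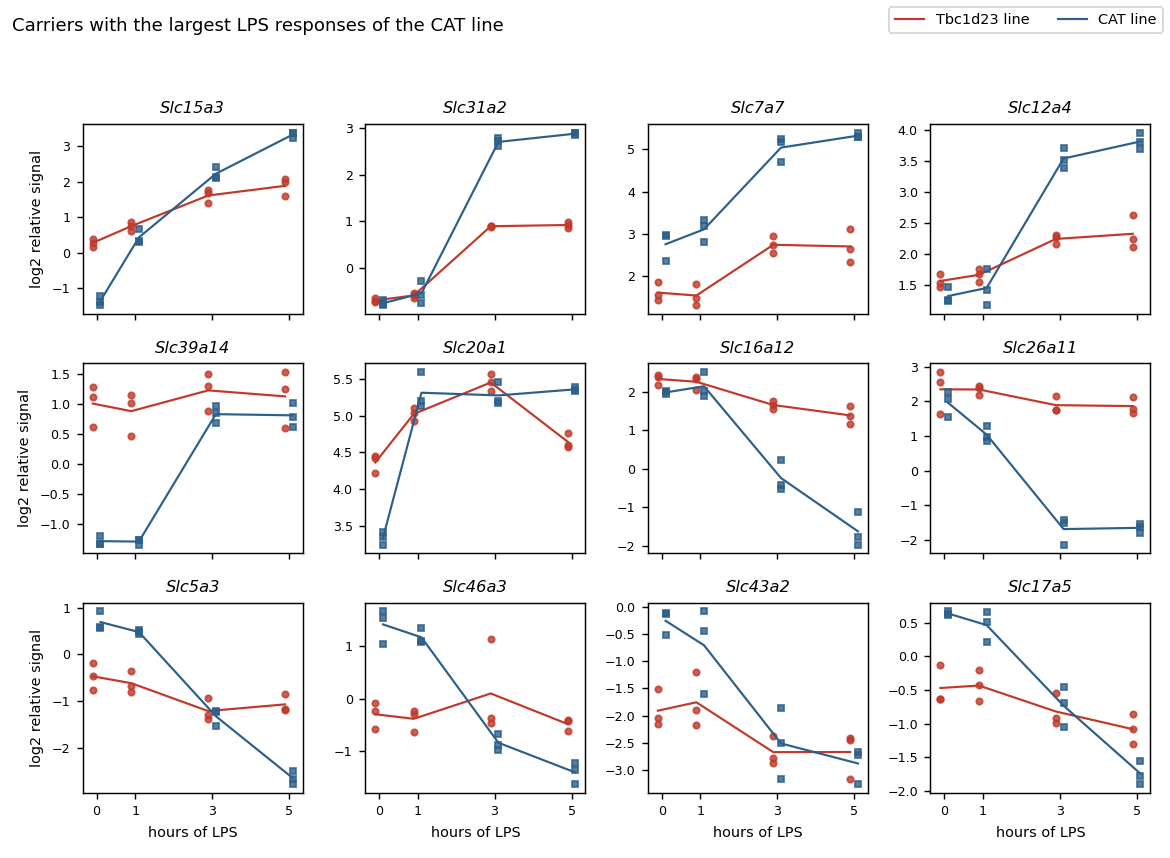
Points are single arrays and lines join group means, as log2 relative signal (y axis) against hours of LPS (x axis), for the 6 carriers most raised and the 6 most lowered at 5 h in the CAT line (blue squares) among those well above background on every array compared, with the Tbc1d23 line (red circles). In each panel the difference between 5 and 0 h is larger in size in CAT cells than in Tbc1d23 cells, and Slc15a3, Slc31a2 and Slc7a7 rise in both lines. The panels were chosen by their CAT responses, which by itself favours larger differences in CAT cells.

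Of 16 sugar carriers none was higher and 2 were lower in Tbc1d23 cells at 5 h (6 at an unadjusted p under 0.05, median -0.22). In CAT cells 4 were higher and 8 lower (median -0.83). All genes gave 3.14% higher and 2.92% lower in Tbc1d23 cells, and 19.6% and 21.7% in CAT cells. Slc5a3, the sodium-coupled carrier of the osmolyte myo-inositol, stood at -1.16, -1.19 and -0.85 in Tbc1d23 cells at 5 h and -0.75, -0.47 and -0.18 at 0 h. Its CAT values were -2.66, -2.77 and -2.50 at 5 h and 0.92, 0.57 and 0.59 at 0 h. It fell in Tbc1d23 cells (-0.60 ± 0.16; -0.74 at 3 h), a call at 5 h lost without any of 4 arrays (adjusted p up to 0.167), and in CAT cells (-3.34 ± 0.16), and the line difference was -1.16 at 0 h and 1.57 at 5 h. Slc17a5 (sialin), which exports sialic acid from the lysosome, fell in CAT cells (-2.39 ± 0.19), and Slc2a8 (GLUT8) and Slc45a4 had differences of responses of 1.95 and 1.77. Slc45a4 was also lower at 3 h in CAT cells (-2.84). Slc37a2, a glucose phosphate carrier of the endoplasmic reticulum, was lower in CAT cells at 5 h (-1.64).

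Of the same class, Slc2a6 (GLUT6), a lysosomal member of the glucose carrier family, was higher in CAT cells at 5 h (1.39 ± 0.12) and lower in Tbc1d23 cells at 0 h (-1.27 ± 0.12) and 5 h (-2.31 ± 0.12). Slc45a3 was 2.90 higher in Tbc1d23 cells at 0 h (1.03 to 3.2 over the settings tried). Its difference of responses at 5 h was -1.90 (-2.39 to -0.79), for which not every array compared was well above background. That difference was not called in a limma fit to the groups compared alone (adjusted p = 0.0856). In Tbc1d23 cells Slc45a3 was lower at 3 h (-1.51), a call lost without Tbc1d23 0 h replicate 1 (-1.07) or 3 h replicate 2 (-1.47). The insulin-responsive glucose carrier Slc2a4 was not well above background in CAT cells at 5 h and was at least 2.59-fold higher in Tbc1d23 cells, but was not called with the normexp correction (0.21).

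Of 10 carriers of vitamins, haem and choline, 1 was lower in Tbc1d23 cells at 5 h (median -0.06, against 2.92% of all genes called lower). In CAT cells 1 was higher and 6 lower (median -0.79, against 19.6% and 21.7% of all genes). Slc46a3, a lysosomal carrier related to the folate carrier, stood at -0.43, -0.41 and -0.62 in Tbc1d23 cells at 5 h and -0.24, -0.08 and -0.58 at 0 h, which overlap. In CAT cells the values were -1.63, -1.37 and -1.23 at 5 h and 1.04, 1.66 and 1.54 at 0 h, a fall of 7.08-fold (-2.82 ± 0.30). It was lower in Tbc1d23 cells at 0 h (-1.72 ± 0.30). The folate carrier Slc46a1 and the haem carrier Slc48a1 (HRG1, of the phagolysosome) were lower in CAT cells at 5 h (-0.80 and -1.22), and Slc23a2, a vitamin C carrier, was 0.60 higher, with a difference of responses of -0.70.

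Slc19a2, a thiamine importer, stood at 5.36, 5.42 and 5.60 in Tbc1d23 cells and 3.05, 3.48 and 3.49 in CAT cells at 0 h, and at 5.46, 5.39 and 5.61 in Tbc1d23 cells and 1.46, 1.53 and 1.39 in CAT cells at 5 h. The lines did not overlap, and the difference was 4.34-fold at 0 h (2.12 ± 0.19; 2.26 within the shared run) and 16.3-fold at 5 h (4.03 ± 0.19; 4.15 within the run). Of the choline carrier family, Slc44a1 was lower in Tbc1d23 cells than in CAT cells at 0 h (-1.39 ± 0.16) and 5 h (-1.55 ± 0.16). Slc44a2 was lower after 3 h of LPS in Tbc1d23 cells (-0.59), a call lost without any of 3 arrays (adjusted p up to 0.0987) and with the quantile (-0.48) or normexp (-0.31) setting.

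Of 32 carriers of inorganic ions, 1 was higher in Tbc1d23 cells at 5 h (median 0, with 7 at an unadjusted p under 0.05). In CAT cells 10 were higher and 4 lower (median 0.22). All genes gave 3.14% higher in Tbc1d23 cells, and 19.6% higher and 21.7% lower in CAT cells. Slc20a1, the phosphate importer PiT1, stood at 4.93, 5.04 and 5.11 at 1 h and 4.22, 4.42 and 4.45 at 0 h in Tbc1d23 cells (0.66 ± 0.12, adjusted p = 0.0029), the carrier called higher there at 1 h, though not with the mean of its probes (0.42). In CAT cells it was 3.35, 3.24 and 3.41 at 0 h, 5.60, 5.21 and 5.14 at 1 h and 5.35, 5.34 and 5.40 at 5 h. It had the largest rise at 1 h among the carriers called in CAT cells, 1.99 ± 0.12 (adjusted p = 3.1e-10; 1.14 with the mean of its probes), and stood 2.03 ± 0.12 higher at 5 h. Slc12a4, the potassium chloride cotransporter KCC1, was higher by 2.49 ± 0.15 in CAT cells at 5 h, and Slc12a9 of the same family was lower in Tbc1d23 cells at 5 h (-1.76).

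Slc26a11, a sulphate and anion carrier, and the monocarboxylate family member Slc16a12 had the largest falls among carriers well above background on all arrays compared. Slc26a11 (probe at chromosome 11, 119242219 to 119242278, mm9) stood at 1.79, 1.67 and 2.14 in Tbc1d23 cells at 5 h and 2.57, 1.63 and 2.85 at 0 h, and at -1.53, -1.61 and -1.80 in CAT cells at 5 h and 1.54, 2.26 and 2.08 at 0 h. In Tbc1d23 cells the difference was -0.48 ± 0.27, not called. In CAT cells the fall was 12.2-fold (-3.61 ± 0.27, adjusted p = 1.68e-09), and it was -3.65 at 3 h already. The lines were 3.58 apart at 3 h and 3.52 at 5 h, higher in Tbc1d23 cells. At 1 h the difference in CAT cells was -0.92, a call lost when any of 13 of the 24 arrays was left out (adjusted p up to 0.208). Slc26a6, of the same family, was lower in Tbc1d23 cells at 0 h (-1.32).

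Slc9a2, a sodium proton exchanger, was not well above background on any CAT array, stood at -1.46, -1.86 and -1.61 in Tbc1d23 cells at 0 h, and was at least 8.12-fold higher there at 0 h and 10.6-fold at 5 h (0.92 and 1.08 on the log2 scale with the normexp correction). The sodium calcium exchanger gene Slc24a3 was at least 3.63-fold higher in Tbc1d23 cells at 0 h by the same rule, but was not called with the normexp correction (0.32). Slc12a3 had a line difference of -1.74 ± 0.79 at 5 h, not called, which was called with quantile normalization (-2.05).

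The brightest probes of 2 ion carriers were erratic. Slc26a9 stood at -1.75, -1.73 and 6.84 in Tbc1d23 cells and -3.63, -6.08 and -5.69 in CAT cells at 0 h, so its difference of 6.25 ± 1.43 rests in large part on replicate 3 (3.39 without it, 11.98 within the shared run), and in CAT cells at 5 h it was 3.87 higher, a call lost without any of 5 arrays (adjusted p up to 0.118) and with the normexp correction (0.98). Slc4a7, a sodium bicarbonate cotransporter, stood at 7.95, 7.95 and 6.31 in Tbc1d23 cells and -1.80, 2.82 and 4.05 in CAT cells at 0 h with its brightest probe (5.71 ± 1.35). At 5 h that probe gave 4.97 ± 1.35 between the lines and 0.64 ± 1.35 for the CAT response, which was not called. The dimmer probes of Slc4a7 gave -1.23 ± 0.17 and -1.56 ± 0.16 between the lines at 5 h, the opposite direction, and 2.70 ± 0.17 and 2.59 ± 0.16 for the CAT response, both called. The direction for this gene therefore depends on the probe.

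Of the 35 mitochondrial carriers limma called 0 in Tbc1d23 cells at 5 h, where 4 were at an unadjusted p under 0.05. In CAT cells 9 were higher and 9 lower, against 19.6% and 21.7% of all genes (median 0.2, and 8 and 12 with quantile normalization). Slc25a22, the mitochondrial glutamate carrier GC1, stood at -1.21, -1.20 and -1.0 in Tbc1d23 cells at 5 h and -1.05, -1.18 and -0.86 at 0 h, and at 1.17, 1.0 and 1.16 in CAT cells at 5 h and -0.53, -0.86 and -0.78 at 0 h. It rose by 1.83 ± 0.12 in CAT cells and, with overlapping groups in Tbc1d23 cells, was lower there than in CAT cells at 5 h (-2.25 ± 0.12). Slc25a33, a pyrimidine nucleotide carrier, was higher in CAT cells at 1 h (1.28) and in Tbc1d23 cells at 0 h (1.51). Slc25a38, the glycine carrier of haem synthesis, was lower in CAT cells at 1 h (-0.64).

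The citrate carrier Slc25a1 and the dicarboxylate carrier Slc25a10 were lower in CAT cells at 5 h (-0.41 and -1.26), the first a call lost without either of 2 arrays (adjusted p up to 0.0915), and Slc25a1 was lower in Tbc1d23 cells at 0 h (-1.08). Slc25a45 was lower in CAT cells at 3 h (-2.97) and in Tbc1d23 cells at 0 h (-1.09). Slc25a35 was not well above background in CAT cells at 5 h, at least 2.97-fold lower than at 0 h, and at least 4.99-fold higher in Tbc1d23 cells. Neither was called with the normexp correction (-0.22 and 0.47), nor the line difference with the mean of probes (0.85). Slc25a30 had a difference of responses of 1.26.

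Of 10 monocarboxylate and other organic acid carriers, 1 was lower in Tbc1d23 cells at 5 h, against 2.92% of all genes. In CAT cells 3 were higher and 2 lower, against 19.6% and 21.7% of all genes. Slc16a12, of the monocarboxylate family, stood at 1.37, 1.16 and 1.62 in Tbc1d23 cells at 5 h and 2.17, 2.39 and 2.43 at 0 h, a difference of -0.94 ± 0.22 that was not called without 1 array (adjusted p = 0.0662). In CAT cells it stood at -1.13, -1.78 and -1.97 at 5 h and 2.01, 1.99 and 1.94 at 0 h, a difference of -3.61 ± 0.22. At 5 h it was 3.01 ± 0.22 higher in Tbc1d23 cells. Slc13a1, whose known substrate is sulphate, was well above background in CAT cells at 3 and 5 h and on no array of the other groups. It was at least 5.08-fold higher in CAT cells at 5 h than at 0 h and at least 5.05-fold lower in Tbc1d23 cells at 5 h (0.76 and -0.89 on the log2 scale with the normexp correction). As it was kept only through those groups, these differences are given with no p. Its fitted line difference at 0 h (1.09) compares signals below that limit, so no fold is given. The lactate and pyruvate carriers Slc16a1 (MCT1) and Slc16a7 (MCT2) were higher (1.01; 0.60 within the shared run) and lower (-1.36) in Tbc1d23 cells at 0 h. Slc16a6 was higher (0.49), a call lost when any of 14 of the 24 arrays was left out (adjusted p up to 0.198).

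Of 10 neurotransmitter and osmolyte carriers, 4 were higher and 1 lower in Tbc1d23 cells at 0 h (median 0.58). Over all genes 25.1% were called higher and 19.9% lower there (median 0.09). Slc6a4, the serotonin importer, was not well above background on any CAT array at 0 h. It stood at -0.35, 0.11 and 0.02 in Tbc1d23 cells at 0 h, at least 24.1-fold higher (adjusted p = 5.48e-13; 5.44 on the fitted scale within the shared run), and at 1.46, 1.74 and 1.77 there at 5 h (1.73 ± 0.21). In CAT cells it stood at -0.66, -0.82 and -0.70 at 5 h, at least 15.3-fold above 0 h. The transcript was higher at 5 h than at 0 h in both lines, and at both times higher in Tbc1d23 cells (2.38 ± 0.21 at 5 h). The creatine importer Slc6a8 fell in Tbc1d23 cells (-1.0 ± 0.13) and in CAT cells (-1.89 ± 0.13). The betaine importer Slc6a12 was 0.71 higher in Tbc1d23 cells at 0 h, and Slc6a16 was lower at 0 h (-0.88) and 5 h (-0.78); these 3 calls were lost without any 1 of 3, 1 and 3 arrays (adjusted p up to 0.111, 0.0783 and 0.116), and within the shared run the value of Slc6a16 at 5 h was -0.27.

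No nucleoside carrier was called higher and 3 of 5 were lower in CAT cells at 5 h (median -0.97), against 19.6% and 21.7% of all genes. Slc29a1 (ENT1) was lower there (-0.97) and in Tbc1d23 cells at 0 h (-0.86), and Slc29a2 (ENT2) was lower in CAT cells at 1 h already (-0.97) and higher in Tbc1d23 cells at 5 h (1.22). Slc43a3, a purine nucleobase carrier, was lower in CAT cells at 5 h (-1.32) and higher in Tbc1d23 cells at 0 h (1.14) and 5 h (2.12). The lysosomal Slc29a3 had a difference of 0.31 ± 1.03 in CAT cells at 5 h, not called. Slc28a2, a concentrative nucleoside carrier, was not tested, nor was the endosomal sodium proton exchanger Slc9a9, since neither passed the limit on dim probes.

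The nucleotide sugar family, which supplies the Golgi and the endoplasmic reticulum, differed between the lines mostly in 1 direction. At 0 h 9 of 17 were higher and 1 lower in Tbc1d23 cells (median 0.51 against 0.09 over all genes), and at 5 h 10 were higher and 1 lower (median 0.48 against 0.08). Over all genes 25.1% were called higher and 19.9% lower at 0 h, and 29.2% higher and 23.9% lower at 5 h. Slc35d2 was 1.57 higher at 0 h, Slc35e3 2.39 higher at 5 h, and Slc35a4 lower at 0 h (-0.89) and 5 h (-0.94). With LPS at 5 h limma called 0 in Tbc1d23 cells, with 0 at an unadjusted p under 0.05. In CAT cells 5 were higher and 4 lower (4 and 5 with quantile normalization), against 19.6% and 21.7% of all genes. They ranged from -1.11 for Slc35e3 to 0.67 for Slc35a1, the CMP-sialic acid carrier, which was not called with the normexp correction (0.41).

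Of 15 organic ion and drug carriers, none was higher and 4 were lower in CAT cells at 5 h, against 19.6% and 21.7% of all genes. Among the 4 were the carnitine importer Slc22a5 (-0.44) and Slc10a4, at least 1.86-fold lower, a call lost without either of 2 arrays (adjusted p up to 0.0953). With the normexp correction neither was called (-0.01 and -0.09). Slc22a23 was at least 2.4-fold higher in Tbc1d23 cells at 0 h and 1.52-fold at 5 h, with 0.31 and -0.01 under that correction, not called. Of 4 fatty acid and acetyl-CoA carriers 1 was higher in CAT cells at 5 h, the urea carrier tested was not called in any of the comparisons at 0 or 5 h, and of 4 tested proteins that carry an Slc name without being carriers 1 was higher and 1 lower.

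**Figure D5:**
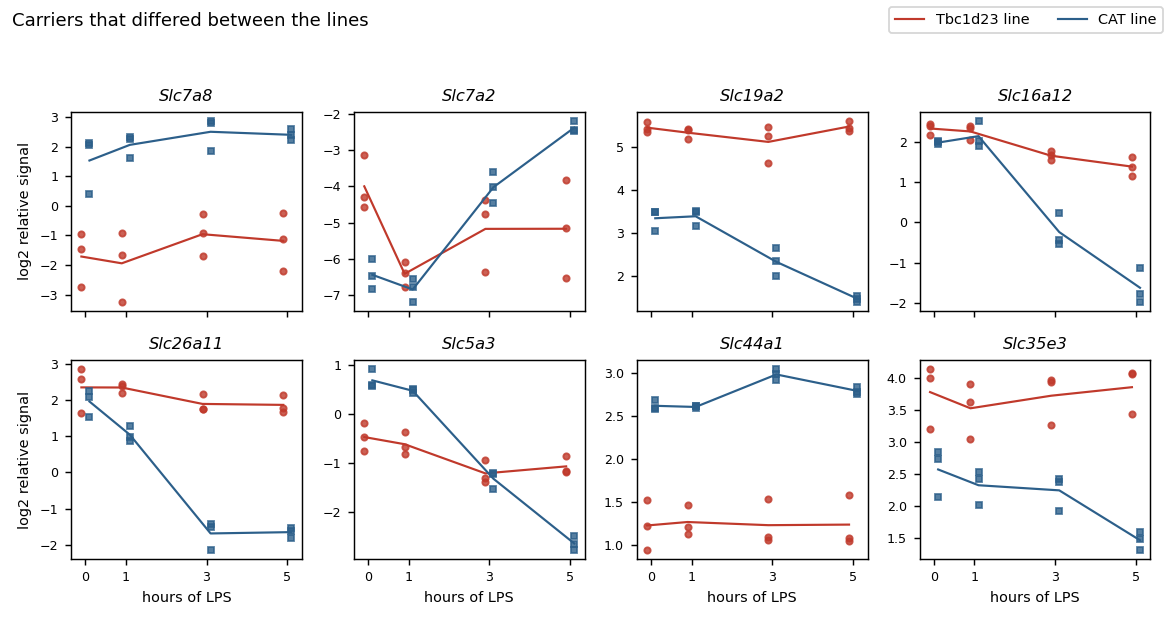
Points are single arrays and lines join group means, as log2 relative signal (y axis) against hours of LPS (x axis), for 8 carriers that differed between the Tbc1d23 line (red circles) and the CAT line (blue squares) at 0 or 5 h. Slc7a8 and Slc44a1 are lower in Tbc1d23 cells at every time, Slc19a2 is higher at every time, and Slc16a12, Slc26a11 and Slc5a3 part with LPS as the CAT courses fall.

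Promoters of carriers that changed with LPS are shown for the letters of binding motifs, as RefSeq (GRCm38.p6) gives the 250 bases before the start of a gene. Slc12a4 and Slc39a1 rose in CAT cells at 5 h (2.49 and 1.69), Slc46a3 fell and the zinc exporter Slc30a1 rose. Capitals mark the NF-kB motif (GGGA, any 4 bases, CC) on either strand in Slc12a4, Slc39a1 and Slc46a3, and the metal response element TGCGCNC or TGCACNC on either strand in Slc30a1.
Slc12a4, chr8:105966116-105966365, minus strand: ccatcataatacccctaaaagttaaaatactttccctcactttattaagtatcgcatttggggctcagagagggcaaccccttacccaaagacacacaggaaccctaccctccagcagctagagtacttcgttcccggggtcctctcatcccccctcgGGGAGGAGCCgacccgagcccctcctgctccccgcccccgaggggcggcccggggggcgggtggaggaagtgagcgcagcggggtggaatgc
Slc39a1, chr3:90247942-90248191, plus strand: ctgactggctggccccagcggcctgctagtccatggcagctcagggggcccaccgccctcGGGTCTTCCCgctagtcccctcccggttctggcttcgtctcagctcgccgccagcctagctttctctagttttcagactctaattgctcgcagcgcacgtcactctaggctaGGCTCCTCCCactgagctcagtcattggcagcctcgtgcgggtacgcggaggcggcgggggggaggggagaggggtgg
Slc46a3, chr5:147894816-147895065, minus strand: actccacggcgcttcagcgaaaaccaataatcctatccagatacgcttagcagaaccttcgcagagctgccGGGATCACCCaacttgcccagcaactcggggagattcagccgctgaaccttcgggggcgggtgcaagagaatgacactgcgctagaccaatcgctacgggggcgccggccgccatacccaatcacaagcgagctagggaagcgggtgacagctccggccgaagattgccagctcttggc
Slc30a1, chr1:191906531-191906780, plus strand: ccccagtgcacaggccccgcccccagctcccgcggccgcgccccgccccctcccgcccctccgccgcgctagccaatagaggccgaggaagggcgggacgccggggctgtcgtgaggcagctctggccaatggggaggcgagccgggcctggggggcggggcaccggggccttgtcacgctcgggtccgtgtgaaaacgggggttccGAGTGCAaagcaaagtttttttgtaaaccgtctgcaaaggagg

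The motif began 92 bases before the start in Slc12a4, 190 and 78 bases before it in Slc39a1, 179 bases before it in Slc46a3 and 43 bases before it in Slc30a1. RefSeq windows were found for 21 of the 29 carriers at least 2-fold higher and 15 of the 25 at least 2-fold lower in CAT cells at 5 h. The NF-kB motif was in 6 of the 21 (28.6%) and 5 of the 15 (33.3%), in 23.8% of the 164 tested carriers with a window and in 17.3% of all 27025 windows, and these shares were not tested. The metal response element was in 7 of the 21 (33.3%), 4 of the 15 (26.7%), 28% of the carriers and 21.3% of all windows. The interferon response element (GAAA, any 2 bases, GAAA) was in none of either set and in 3.04% of all windows, and the amino acid response element TGATGNAA was in 1 of the 21 (Slc7a7) and in 3.53% of all windows. A match is a run of letters and not a site shown to be bound.

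Neighbouring members did not always change by the same amount. Slc31a2 and Slc31a1 lie within 100000 bases of each other on chromosome 4 (probe positions, mm9), and the brightest probes were 3.63 and 0.67 higher in CAT cells at 5 h. Of the 14 such pairs of neighbouring members, 4 had both members called in CAT cells at 5 h, 3 of them in the same direction. The pair called in opposite directions was Slc7a6 (-0.76) and Slc7a6os (0.74), which has an Slc name without being a carrier. The probes of several carriers were also compared. Of 75 carriers with several probes kept, 2 gave opposite calls at 0 h between the lines, 3 at 5 h, and 1 for the CAT response at 5 h. All probes were called in the same direction for 15, 24 and 27 of the 75 in these comparisons.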

How the data were processed

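RNA of 24 samples was hybridised to 1-colour Agilent arrays. Per the file headers, Agilent Feature Extraction 10.7.1.1 (probes placed on mm9) gave the deposited intensity of each spot, background-subtracted within the array and with low values replaced by a surrogate (12.5 to 42.1% of probes per array), and other columns per spot, the flags for signal well above background, saturation and outliers. The deposited value table holds log2 values whose arrays share the same quantiles; its probe order within an array follows the scanner intensities (Spearman 0.9997 to 0.99998), and it served as an alternative. The submitters' processing notes name Agilent Feature Extraction, RMA and Partek.

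From the intensities, log2 minus the array's 75th percentile (149 to 349 units) was computed, control spots and outlier spots were left out, spots of a probe were averaged and the brightest kept probe stood for a gene. limma 3.58.1 (R 4.3.3) was fitted to all 8 groups and 15099 gene names, with Benjamini-Hochberg adjustment per comparison and calls at an adjusted p under 0.05. The number of arrays limits the precision. For a probe well above background on no array of a group, "at least" folds set the brighter group against a floor, the dimmest well-measured signal of each array or the probe's own where that is brighter. The fit was tested on simulated data.

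Same-numbered arrays of a line shared a slide and deviated together (18 pairs, correlations 0.174 to 0.778), so replicate numbers pair samples within a line; between lines the correlations were -0.402 to -0.068, and the numbers share only a name. RefSeq tables matched 203 of the 218 members. Members and lists were chosen with earlier results of these data known. Genes were named by rule: in the line differences at 0 and 5 h, the CAT response at 5 h and the difference of responses at 5 h, the 6 highest and 6 lowest called members measured on all arrays compared whose groups did not overlap (3 and 3 in the other comparisons), the highest and lowest called member of each class of 5 or more, the 4 highest and 4 lowest bounds, members whose probes disagreed, and a list of carriers with known roles in macrophages. Alternatives changed the normalization, background correction, filter, probe choice, samples in the fit, slide or replicate block and fold threshold, used the deposited values, and left out each array in turn. Slc39a1 was added for its promoter after its values were seen. Probe sequences were not used here, and 1 member that the rule names is not reported here.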

Additional observations from a re-analysis of the deposited data

Results flagged for a closer look

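The LPS responses of the lines differed, by the test of the difference itself (limma, Tbc1d23 minus CAT), for 4 carriers at 1 h, 46 at 3 h and 71 at 5 h. With the replicate block within line these counts were 11, 86 and 108.

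At 1 h the 4 were Slc15a3 (-1.32 ± 0.20, adjusted p = 0.00042), Slc20a1 (-1.32 ± 0.17, adjusted p = 4.97e-05), Slc25a33 (-1.19 ± 0.22, adjusted p = 0.00286) and Slc25a38 (0.72 ± 0.18, adjusted p = 0.0364). At 3 h the named carriers with a smaller rise in Tbc1d23 cells were Slc15a3 (-2.24), Slc31a2 (-1.86) and Slc39a14 (-1.91). Those with a smaller fall were Slc26a11 (3.19), Slc46a3 (2.66) and Slc25a45 (2.40).

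At 5 h negative differences were found among metal carriers for Slc31a2 (-2.01), Slc39a14 (-1.98), Slc39a8 (-2.24) and Slc30a1 (-1.25). Among amino acid and peptide carriers they were found for Slc15a3 (-3.08, adjusted p = 1.23e-09) and Slc7a2 (-5.22). Further negative differences were those of Slc20a1 (-1.75), Slc12a4 (-1.73), Slc25a22 (-1.94), Slc13a1 (-4.97), Slc6a4 (-2.97), Slc45a3 (-1.90) and Slc23a2 (-0.70).

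Positive differences at 5 h were found for carriers that fell in CAT cells, Slc26a11 (3.13, adjusted p = 3.79e-06), Slc5a3 (2.74), Slc16a12 (2.66), Slc46a3 (2.64), Slc2a8 (1.95), Slc19a2 (1.91), Slc45a4 (1.77) and Slc41a3 (1.59). Further positive differences were those of Slc6a8 (0.89), Slc29a1 (0.92), Slc29a2 (1.14), Slc25a30 (1.26), Slc22a5 (0.48), Slc10a4 (1.24), Slc35e3 (1.19), Slc35e4 (0.67) and Slc7a4 (2.13). Of these, Slc10a4, Slc13a1, Slc39a8, Slc6a4, Slc7a2 and Slc7a4 were not well above background on any array of at least 1 group compared, so their fitted differences compare a measured signal with one below that limit. Slc7a2 and Slc13a1 were kept only through CAT arrays exposed to LPS, so the choice of genes itself favoured a negative difference for them. Slc45a3 was not well above background on every array of the groups compared.

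The call of Slc25a38 at 1 h was lost when any of 10 arrays was left out, and those at 5 h of Slc35e3 with any of 8, Slc35e4 with any of 7, Slc10a4 with any of 5 and Slc22a5 with 1. Within the slide run that holds both lines, all 71 differences at 5 h kept their sign and 45 were called. Those named here that were not called there were Slc10a4 (1.19), Slc22a5 (0.45), Slc23a2 (-0.73), Slc29a2 (1.23), Slc35e3 (1.33), Slc35e4 (0.67) and Slc39a8 (-2.19) at 5 h, and Slc25a33 (-1.13) and Slc25a38 (0.62) at 1 h. With the normexp correction the calls of Slc7a4 (0.06), Slc10a4 (0.13), Slc22a5 (0.09), Slc29a2 (0.25), Slc35e3 (1.10) and Slc39a8 (-0.40) at 5 h and of Slc25a38 at 1 h (0.65) were lost, and the difference of Slc6a4 at 5 h turned to 0.07.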

How the results depend on the processing

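Of 220 values for single genes, 59 changed their call under at least 1 setting. With the normexp background correction, repaired after seeing the data because the fit as planned failed on some arrays and was not run, the difference of responses of Slc6a4 at 5 h was 0.07, the line difference of Slc13a1 at 0 h was -0.04 and that of Slc22a23 at 5 h was -0.01, each the opposite sign of the value given; the cause was not tested. All 3 genes lay near background on arrays of at least 1 group, where signal over background limits the values.

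Requiring a 2-fold difference as well left 59, 44, 55 and 62 carriers between the lines at 0, 1, 3 and 5 h. It left 1, 6 and 7 for the Tbc1d23 responses at 1, 3 and 5 h, 3, 40 and 54 for the CAT responses, and 24 and 38 for the differences of responses at 3 and 5 h. With the replicate block within line the counts were 7, 42 and 42 (Tbc1d23, 1, 3 and 5 h), 30 (CAT, 1 h) and 11, 86 and 108 (differences of responses). A random slide effect gave 7, 42, 45 and 30, and 12, 88 and 107, for the same comparisons. The slide run as a fixed term gave 31 and 25 (Tbc1d23, 3 and 5 h), 21 (CAT, 1 h) and 7 (difference of responses, 1 h). Within the shared run the Tbc1d23 responses rest on 1 array per time, assumed to vary like the other groups, and gave 4, 8 and 9. Fits to the groups of a comparison alone gave 0, 4 and 5 (Tbc1d23) and 5 (CAT, 1 h), from fewer samples; limma's 0 stands beside 2 in the fit to all groups. The Tbc1d23 count at 1 h was 1 with the repaired normexp correction, with probes above background on all arrays, and with the mean of probes, and the CAT count at 1 h was 7 with no filter. The replicate number as a block across lines, which pairs only names there, moved no count by over 1.5 times (119 carriers called between the lines at 0 h and 137 at 5 h).

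Leaving out 1 array gave 1 to 3 carriers for the Tbc1d23 response at 1 h (1 without Tbc1d23 1 h replicate 1 or 3), 8 to 16 at 5 h (8 without Tbc1d23 5 h replicate 2, 9 without 0 h replicate 2) and 7 to 14 for the CAT response at 1 h (7 without CAT 0 h replicate 2). Over the same arrays the ranges were 101 to 115 and 115 to 132 for the lines at 0 and 5 h, 102 to 119 for the CAT response and 58 to 75 for the difference of responses at 5 h.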
